A study of Mus musculus with 10 samples.

Results

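The genes described here are 53 cell cycle and DNA replication genes, namely the G1 cyclins, cyclin-dependent kinases (CDKs) and CDK inhibitors, the pocket proteins and E2F factors, the DNA replication genes, and the genes of G2 and mitosis. The rule uses their names and no measured value, although the list was chosen with earlier results of these data known. They are 53 of the 21951 protein-coding genes of the mouse annotation. Methylated RNA immunoprecipitation sequencing (MeRIP-seq) was applied to 3T3-L1, a line of mouse fibroblasts able to become fat cells under a hormone cocktail. In MeRIP-seq, RNA fragments carrying N6-methyladenosine (m6A) are pulled down by an antibody (IP) and sequenced beside the unselected RNA (input), and stretches enriched in the IP are called as m6A peaks. A member was counted as having a peak when both ends of a listed peak lay in exons of the gene on its own strand.

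The DMSO controls were preadipocytes (DMSO Pre), preadipocytes at mitotic clonal expansion (DMSO MCE) and cells labelled as mature adipocytes (DMSO Diff). Rhein, a plant anthraquinone described as an inhibitor of the m6A demethylase FTO, was given at 20 µM from day 0 to day 3, with cells collected at clonal expansion (rhein MCE) and as mature adipocytes (rhein Diff). All cells other than DMSO Pre had received the hormone cocktail. The source field of the sample labels reads 3T3-L2, whereas the series title names 3T3-L1. Each of the 5 conditions had 1 IP and 1 input library, so no difference between conditions was tested, and the intervals given cover counting error over genes or peaks only. Peaks of the same gene share a transcript and are not independent, so intervals over peaks are too narrow where few genes hold most of them. Peak lists hold no read counts, so the depth is unknown, and a gene without a peak may lack the reads needed to call one. Fewer transcripts and less methylation per transcript cannot be told apart.

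The lists differed in length. DMSO MCE held 5128 peaks, DMSO Pre 2824, DMSO Diff 2944, rhein MCE 3069 and rhein Diff 3071. The rhein lists shared 3067 identical spans, so they were counted as 1 list, for which the rhein MCE values are given. Among the members, apart from small differences in score, rhein Diff differed by a further peak in E2f1. Where rhein Diff is not named, its counts and shares can differ by that peak. The 4 distinct lists are called Pre, MCE, Diff and rhein from here on. No rhein value below can therefore be assigned to 1 stage. The deposited value of each peak is a score. If it is minus log2 of the adjusted p-value of the call, its lowest value stands for between 0.0500 and 0.0549 in the 5 lists, and a higher score is a stronger call. The highest score was 735.3 in Pre, 127.3 in MCE, 675.1 in Diff and 487.5 under rhein. Scores were not brought to a common scale, so a difference in score between lists is not a measured change in methylation.

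The mitotic cell cycle is driven by cyclins that activate CDKs. D-type cyclins with CDK4 and CDK6 phosphorylate the pocket proteins, which frees E2F factors to transcribe the genes of DNA replication, and cyclin B with CDK1 then starts mitosis. Growth-arrested 3T3-L1 preadipocytes re-enter this cycle after hormonal induction, and this mitotic clonal expansion precedes fat cell differentiation. m6A is written mostly at adenosines within the motif GGAC and related sequences, is often found around stop codons and in 3′ UTRs, and is read by proteins that influence mRNA decay and translation.

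The sequences below are those of the member sites that were called in at least 3 of the 4 distinct lists, in both MCE and rhein, or as the highest-ranking member peak of a list. A site is a set of peaks of 1 gene that overlap across lists, and sites are numbered from the 5′ end of the gene. Peaks in the coding sequence (CDS) of at most 300 bases are given whole or as their CDS part, and other sites by 30 bases. All are read 5′ to 3′ on the strand of the gene from GRCm38 (mm10), with introns left out, and capitals mark GGAC, which was searched on the strand of the gene only. The CDK inhibitor gene Cdkn1b is shown because its site in the last part of the 3′ UTR (chr6:134925133-134925162, plus strand) was the only member site of all 4 lists. The site in the 3′ UTR of Cdk4 (chr10:127067281-127067310, plus strand) recurred in 3 lists, and the site in the 5′ UTR of Cdkn2c (chr4:109666390-109666419, minus strand) recurred in both MCE and rhein. The Cdkn2c bases come from the rhein peak, which held no GGAC, whereas the longer MCE peak held 1. E2f1 is shown with the end of its coding sequence (chr2:154560688-154560831, minus strand), the last 3 bases being the stop codon.
Cdk4 site 3: aaagagtatggtctttatttttctttaatg
Cdkn1b site 3: tttaaggaaaaaaGGACacttgtagagtaa
Cdkn2c site 2: actggctggcagccgctgtcctgtccgcgg
E2f1 site 1: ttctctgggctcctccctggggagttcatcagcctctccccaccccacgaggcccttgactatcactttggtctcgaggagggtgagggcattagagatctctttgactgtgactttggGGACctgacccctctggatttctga

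Of the sites shown, 7 belong to replication genes. Mcm3 had a site that overlaps its coding sequence (chr1:20805827-20805856, minus strand), all 30 printed bases being coding, and another just past its stop codon in the 3′ UTR (chr1:20803345-20803374, minus strand), each found in both MCE and rhein. Top2a had 5 such sites on the minus strand of chromosome 11, and no other member had as many. They began with site 1 at the start codon (chr11:99022405-99024066), followed by site 4 (chr11:99016108-99016137), site 6 (chr11:99007267-99009230), site 8 (chr11:99000813-99001109) and site 9 (chr11:98996836-98999280). Sites 1, 6, 8 and 9 of Top2a were listed in MCE, Diff and rhein, and site 4 in MCE and rhein. GGAC was present in the printed bases of sites 4 and 6 and absent from those of sites 1, 8 and 9. The whole site 1 peaks of MCE and rhein each held 1 GGAC, outside the printed coding bases.
Mcm3 site 1: atcagacctagaagatgaagaggaaaagag
Mcm3 site 2: ggtgagacgatcaGGACttggtggaagctt
Top2a site 1: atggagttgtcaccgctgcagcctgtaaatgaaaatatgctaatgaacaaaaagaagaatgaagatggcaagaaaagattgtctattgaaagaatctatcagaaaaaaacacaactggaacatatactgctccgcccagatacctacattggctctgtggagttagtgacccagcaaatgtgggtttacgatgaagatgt
Top2a site 4: aaatgcaaagcctGGACaaagatattgttg
Top2a site 6: ggattatttgtatGGACaaagcacttcgta
Top2a site 8: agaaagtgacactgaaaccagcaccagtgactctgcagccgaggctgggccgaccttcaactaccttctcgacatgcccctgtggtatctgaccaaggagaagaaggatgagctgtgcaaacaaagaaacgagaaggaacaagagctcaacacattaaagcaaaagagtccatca
Top2a site 9: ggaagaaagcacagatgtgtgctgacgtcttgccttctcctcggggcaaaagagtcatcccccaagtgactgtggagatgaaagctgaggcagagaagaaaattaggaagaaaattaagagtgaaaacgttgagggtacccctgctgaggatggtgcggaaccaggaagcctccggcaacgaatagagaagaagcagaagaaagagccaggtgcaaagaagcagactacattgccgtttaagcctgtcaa

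Mki67, which encodes the proliferation marker Ki-67, is shown with the coding sites that both MCE and rhein held (chr7:135708107-135708181 and chr7:135700640-135700839, minus strand). Site 2 carried GGAC at 2 places and site 1 at none.
Mki67 site 1: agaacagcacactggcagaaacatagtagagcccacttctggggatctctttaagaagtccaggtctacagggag
Mki67 site 2: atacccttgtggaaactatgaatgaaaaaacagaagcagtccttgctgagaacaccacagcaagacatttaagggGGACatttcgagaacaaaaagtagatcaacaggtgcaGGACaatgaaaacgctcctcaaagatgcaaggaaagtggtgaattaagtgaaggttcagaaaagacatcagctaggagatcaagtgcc

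At full list length, members carried peaks most often in MCE and least often in Diff. A peak was found in 7 of the 53 members in Pre (13.2%, 95% Wilson interval 6.55 to 24.8), against 6.82% of all protein-coding genes. In MCE it was found in 15 members (28.3%, 18 to 41.6), against 12.3% of all protein-coding genes. In Diff it was found in 3 members (5.66%, 1.94 to 15.4), against 6.6%. The rhein list gave 11 members (20.8%, 12 to 33.5), against 7.27%, and rhein Diff gave 12 (22.6%, 13.5 to 35.5), against 7.28%, the additional gene being E2f1. The share of all protein-coding genes lay below the interval of the members in MCE and in the rhein lists, and inside it in Pre and Diff. By the symbol in the lists in place of the exons, 20.8% of the members were named in MCE (12 to 33.5), an interval that held the 12.5% of all genes.

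**Figure D1:**
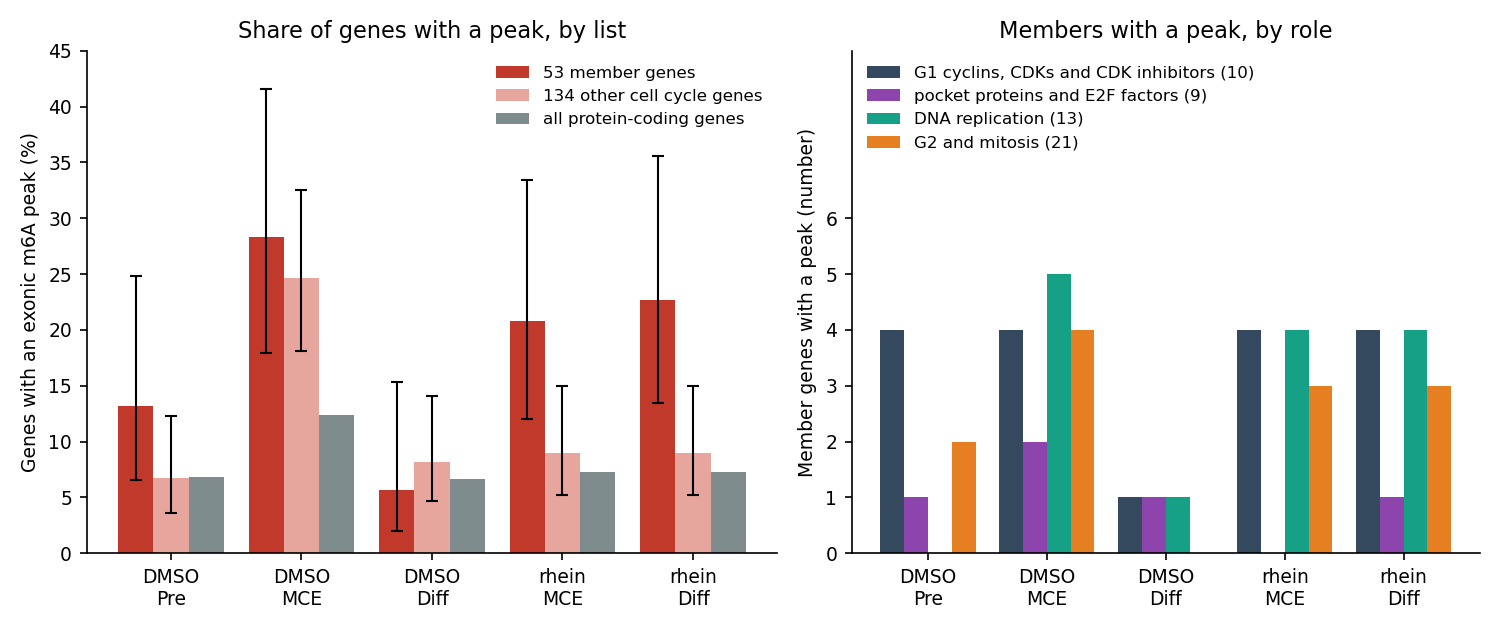
The left plot gives the percentage of genes with an exonic peak in each list for the 53 member genes, 134 other cell cycle genes and all protein-coding genes, with 95% Wilson intervals as bars, and the right plot gives the number of members with a peak by role at full list length. At full list length the member share is highest in DMSO MCE at 28.3% and lowest in DMSO Diff at 5.66%, whereas lists of equal length put rhein MCE above DMSO MCE, with 11 members against 9. At that length 6.83% and 7.46% of all protein-coding genes had a peak in these lists.

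The member transcripts were longer than those of other genes, with a median of 3381 exonic bases on the longest coding transcript against 2713 over all protein-coding genes. Members with a peak had a median of 3740 bases and those without 3010, and protein-coding genes with a peak had 3712. The protein-coding genes were not limited to those expressed in these cells. The parts of transcript length and of expression in these shares were not tested. Among genes with a peak in at least 1 list, the 19 members were listed in 36.8% of cases in Pre, 78.9% in MCE, 15.8% in Diff and 57.9% under rhein, beside 41.8%, 75.6%, 40.5% and 44.6% of the 3582 protein-coding genes. By that measure Pre and Diff lay below all genes, and the members stood furthest from all genes in Diff. The intervals of the members, 56.7 to 91.5 in MCE and 36.3 to 76.9 under rhein, then held the share of all genes, whereas that of Diff, 5.52 to 37.6, lay below it. However, 7 of the 19 members entered this set through a peak in MCE alone, so low shares in Pre and Diff are in part fixed by the filter. Over all 53 members the Diff share was 5.66% against 6.6%, so no depletion in Diff can be read from the filtered share.

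The order of MCE and rhein depended on how many peaks were taken from each list. With the 2824 highest-scoring peaks of every list, 9 members (17%) had a peak in MCE and 11 (20.8%) under rhein. All protein-coding genes then gave 7.46% and 6.83%, and the member peaks numbered 24 and 23. The 6 members that left the MCE list were Aurkb, Birc5, Ccnd1, Foxm1, Mcm2 and Mcm5, and none left the other lists. A score past an adjusted p-value of 0.01 also gave 9 members in MCE and 11 under rhein, against 8.74% and 5.82% of all protein-coding genes. Past 0.001 it gave 4 (7.55%) and 5 (9.43%), against 2.72% and 2.52%. By the symbol in the lists in place of the exons, 11 members were named in MCE and 12 under rhein, against 12.5% and 7.72% of all protein-coding genes. The 12 included Rbl2, which was named under rhein only for exons of Chd9, so the order by symbol rests on that assignment. Pre kept 7 members and Diff 3 at equal length, against 6.82% and 6.39% of all protein-coding genes.

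By role, the counts at full list length stand beside 6.82% of all protein-coding genes in Pre, 12.3% in MCE, 6.6% in Diff and 7.27% under rhein. Of the 13 replication genes, 0 had a peak in Pre, 5 (38.5%) in MCE, 1 (7.69%) in Diff and 4 (30.8%) under rhein. Of the 21 genes of G2 and mitosis, 2 (9.52%) had a peak in Pre, 4 (19.05%) in MCE, 0 in Diff and 3 (14.3%) under rhein. The 10 G1 cyclins, CDKs and inhibitors gave 4, 4, 1 and 4 genes, and the 9 pocket proteins and E2F factors gave 1, 2, 1 and 0. Rhein Diff gave 1 of these 9, E2f1. At equal list length MCE held 3 replication genes (Mcm3, Mcm4 and Top2a, 23.1%) and 1 gene of G2 and mitosis (Mki67, 4.76%). All protein-coding genes then gave 7.46%. The order of Pre and MCE thus turned for G2 and mitosis, from 2 against 4 to 2 against 1, and held for replication, at 0 against 3. The roles hold few genes, and their counts were not tested against each other.

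**Figure D2:**
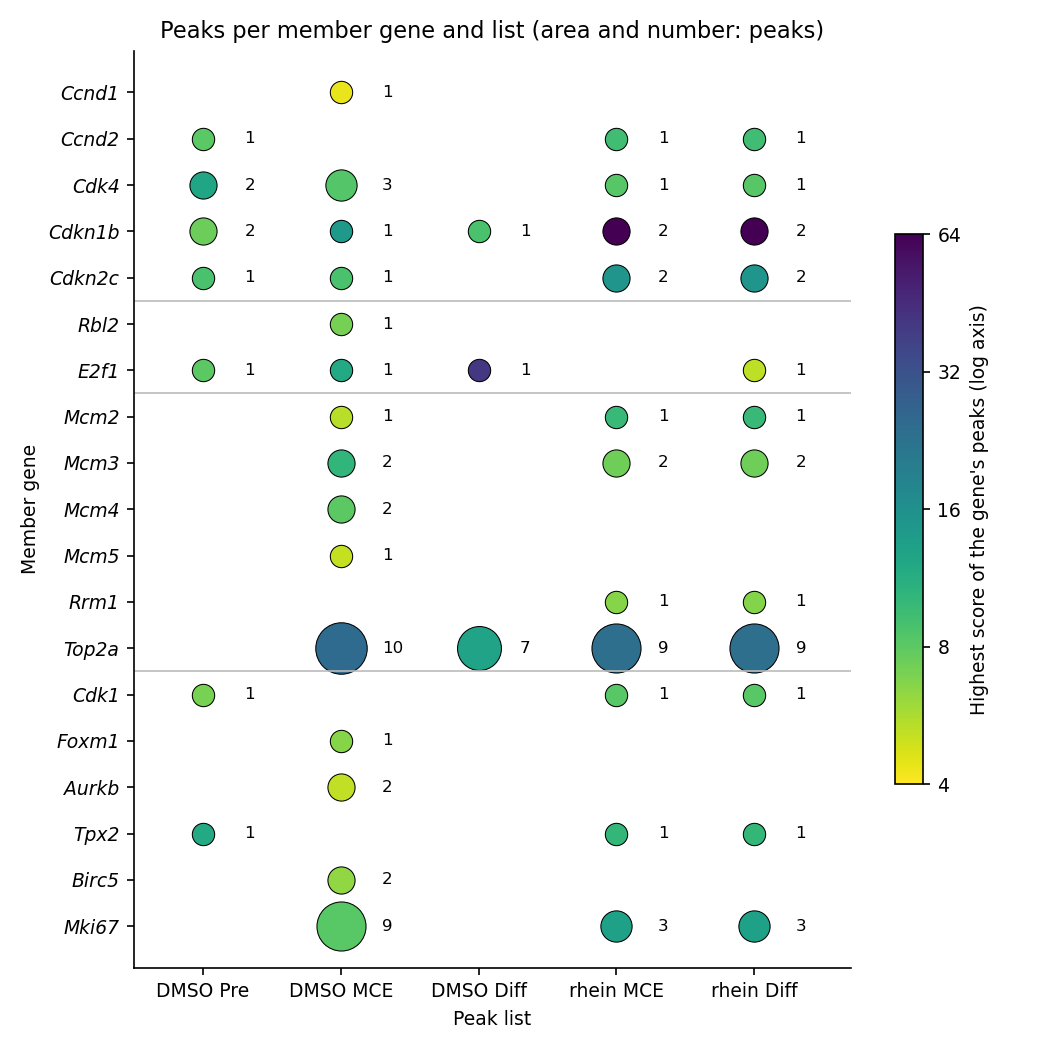
Each circle is a member gene (rows) with a peak in a list (columns), its area and the number beside it give the peaks and its colour the highest score on a log scale, with grey lines between the 4 roles. Cdkn1b fills every column, Top2a and Mki67 have the largest circles, and the DMSO Diff column holds 3 genes.

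Among the G1 genes, Cdkn1b, which encodes the CDK inhibitor p27 that holds cells in arrest, was the only member with a peak in all lists. Its 3′ UTR site (chr6:134925062-134925286 in Pre and MCE, ending 25 bases earlier in the other lists) scored 7.50 in Pre, 14.4 in MCE, 8.90 in Diff and 63.9 under rhein. It ranked 1514 of 2824 peaks in Pre, 408 of 5128 in MCE, 1223 of 2944 in Diff and 48 of 3069 under rhein, the highest rank of any member peak in these lists. The site lay about 3 kb past the stop codon, with its midpoint 3100 bases from it in Pre, and held 1 GGAC. The lists give it the symbol Lockd, a neighbouring gene, and it was assigned to Cdkn1b here by its exons and strand. Cdkn1b also had a coding peak in Pre (score 6.76) and a further 3′ UTR peak under rhein (score 7.31), neither found in another distinct list.

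Cdk4, the catalytic partner of the D-type cyclins, had 2 peaks in Pre, 3 in MCE, 0 in Diff and 1 under rhein. Its recurring 3′ UTR site scored 12.4 in Pre, 7.07 in MCE and 8.34 under rhein. This site and another 3′ UTR site in MCE (score 7.12) lie over exons of Tspan31 on the opposite strand. An opposite-strand peak overlapped the recurring site under rhein and the other one in MCE, so the reads of Cdk4 and Tspan31 may not have been separated there. The remaining Cdk4 peaks, in the 5′ UTR in MCE (score 8.37) and in the CDS in Pre (score 4.24, rank 2814 of 2824), lay over no opposite exon.

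Cdkn2c, which encodes the inhibitor p18 of CDK4 and CDK6, was marked at different places in different lists. Pre had a peak at the end of its CDS (score 8.83, midpoint 89 bases before the stop codon). MCE and rhein instead shared a 5′ UTR site, with scores of 8.90 and 15.0, and rhein had a further 5′ UTR peak (score 5.21). Diff had none.

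The D-type cyclins had single peaks in their 3′ UTRs. Ccnd2 had 1 in Pre (score 8.11) and 1 under rhein (score 9.40), which did not overlap, and none in MCE or Diff. Ccnd1 had 1 peak in MCE, with a score of 4.37 that ranked 5123 of 5128, over an exon of LTO1 with an opposite-strand peak. Ccnd3 had no peak.

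**Figure D3:**
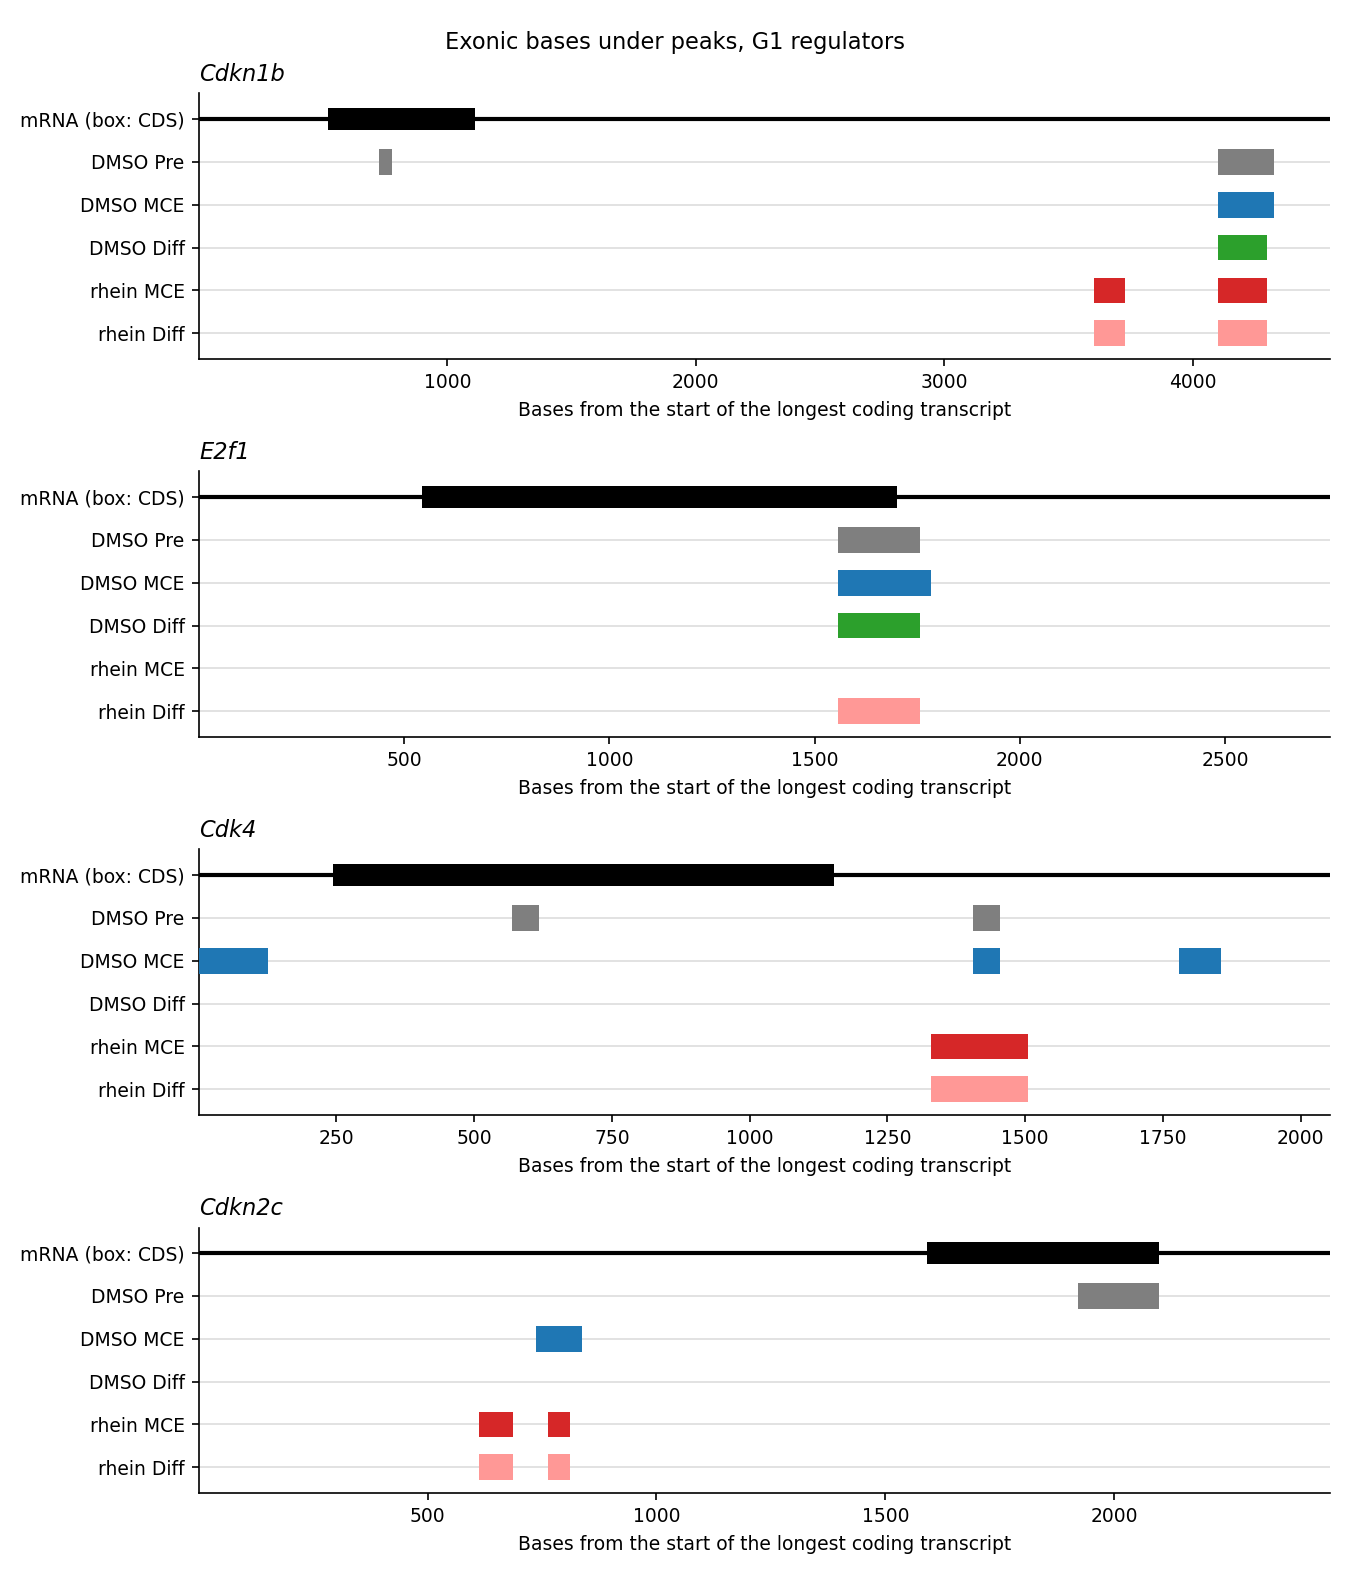
For Cdkn1b, E2f1, Cdk4 and Cdkn2c, coloured boxes mark the exonic bases under peaks in each of the 5 lists along the longest coding transcript, in bases from its start, below the mRNA with the CDS as a box. The Cdkn1b boxes of all lists align near the 3′ end, the E2f1 boxes lie over the stop codon, and the Cdkn2c box of DMSO Pre lies in the CDS whereas those of the MCE lists lie in the 5′ UTR.

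Of the pocket proteins and E2F factors, E2f1, the activator of S-phase transcription, carried 1 site over its stop codon. Its score was 8.04 in Pre, 12.0 in MCE and 40.7 in Diff, where it ranked 80 of 2944. The score order of this site in the DMSO lists thus had Diff at the top, whereas the number of members with a peak was lowest there. The rhein MCE list had no E2f1 peak, and the rhein Diff list had it with a score of 5.25 at rank 2939 of 3071. The site spanned chr2:154560632-154560831 in Pre, Diff and rhein Diff and was 25 bases longer in MCE, and the lists name it after Necab3. Rbl2, which encodes the pocket protein p130 of quiescent cells, had 1 peak in MCE (score 7.17), in the 3′ UTR at 115 bases past the stop codon. Rows carrying the symbol Rbl2 in other lists lay in exons of Chd9 and were not counted.

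Top2a, which encodes DNA topoisomerase II alpha, the enzyme that untangles replicated chromosomes, held the most member peaks. It had 0 peaks in Pre, 10 in MCE, 7 in Diff and 9 under rhein. Only 4 protein-coding genes had more peaks than Top2a in MCE, out of 2709 with a peak, and it ranked 15 of 1449 in Diff and 6 of 1596 under rhein. Its peaks covered 29.9% of the exonic bases of the longest coding transcript in MCE, 16.3% in Diff and 37.8% under rhein.

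The Top2a peaks merged into 13 sites, 4 of which were found in MCE, Diff and rhein. Site 9 had the highest member score of MCE at 24.7 (rank 148 of 5128), and scored 6.32 in Diff and 12.6 under rhein. Site 4 had the order reversed between MCE and rhein, with 8.21 in MCE and 23.5 under rhein, where 1 long peak of 625 exonic bases over 5 exons covered it. Site 6 scored 18.1 in MCE, 12.9 in Diff and 9.16 under rhein. Site 1, whose peaks cover the start codon in MCE and rhein, scored 12.3 in both. It scored 9.40 in Diff, where its peak began at base 224 of the transcript, past the CDS start at base 124. The scores of these sites therefore did not all move one way between MCE and rhein. Only 1 Top2a peak had its midpoint in the 3′ UTR (rhein, score 5.83), and 2 in MCE had both ends only in exons of non-coding transcripts, with 40 of 50 and 148 of 225 bases in the CDS of the longest coding transcript.

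The minichromosome maintenance genes, whose products form the replicative helicase, had peaks in MCE and rhein and none in Pre or Diff. Mcm3 had 2 peaks in each of MCE and rhein, with scores of 10.4 and 7.32 in MCE and 7.40 and 5.77 under rhein. Both ends of its site 1 peaks lay only in exons of non-coding transcripts, but 149 of 210 bases in MCE and 104 of 175 under rhein were in the CDS of its longest coding transcript. Mcm2 had 1 CDS peak in MCE (score 5.38) and another under rhein (score 9.89) that did not overlap it. Mcm4 had 2 CDS peaks (scores 8.03 and 7.57) and Mcm5 1 (score 5.09, rank 4939 of 5128), both in MCE and not under rhein. Mcm6 and Mcm7 had none. Rrm1, the large subunit of ribonucleotide reductase, had 1 CDS peak under rhein (score 6.65), while its partner subunit gene Rrm2 had none.

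**Figure D4:**
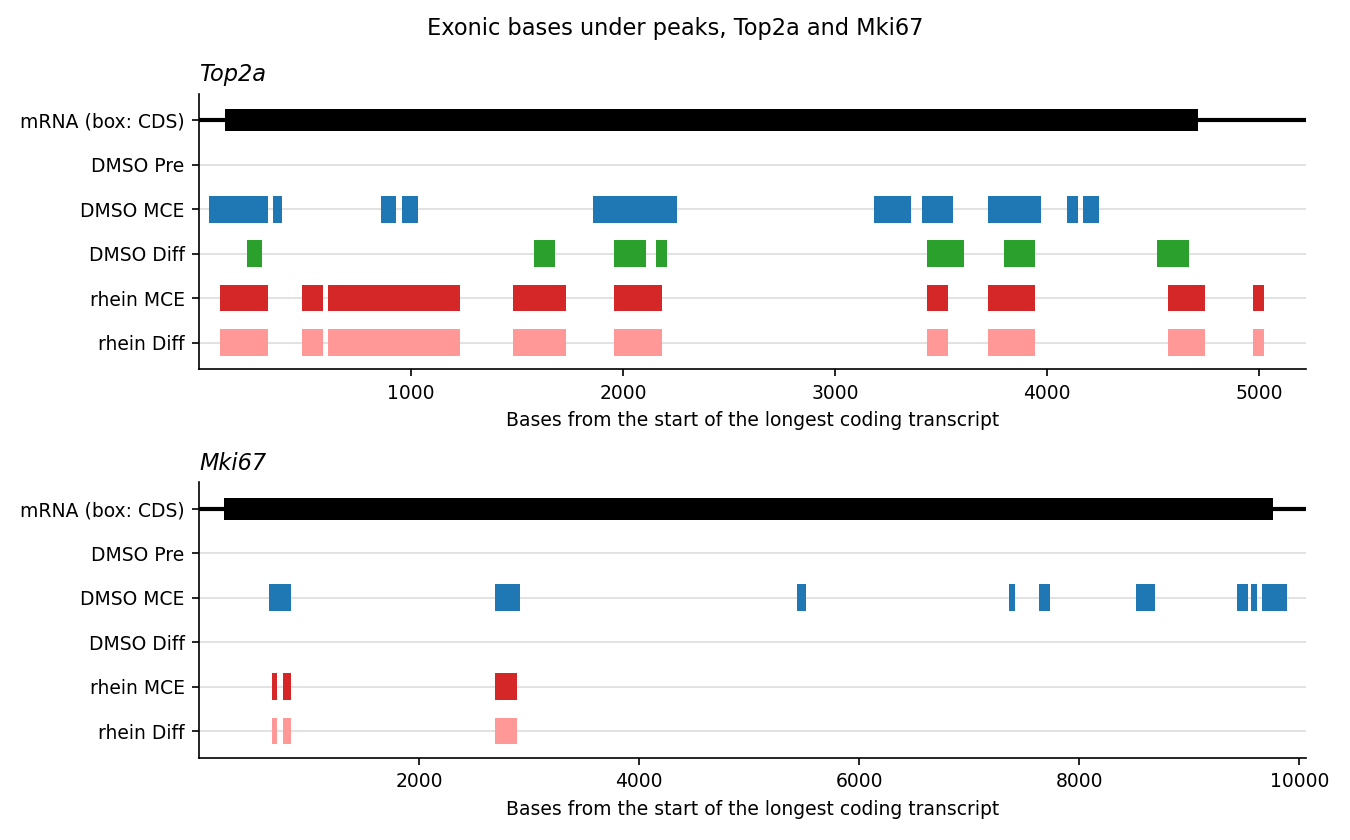
For Top2a and Mki67, coloured boxes mark the exonic bases under peaks in each of the 5 lists along the longest coding transcript, in bases from its start, below the mRNA with the CDS as a box. Boxes are spread along the CDS of Top2a in every list except DMSO Pre, where neither gene has any, and Mki67 has 9 peaks in DMSO MCE, 3 in rhein MCE and 0 in DMSO Diff.

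Among the genes of G2 and mitosis, Mki67 had 0 peaks in Pre, 9 in MCE, 0 in Diff and 3 under rhein. Its scores ranged from 5.51 to 8.26 in MCE, and its highest under rhein was 13.3 at site 2, which scored 7.70 in MCE. The 3 rhein peaks fell on sites 1 and 2 in the 5′ part of the CDS, while the sites from the middle of the CDS to the stop codon were listed in MCE only. The exonic bases under its peaks made up 11.9% of the transcript in MCE and 3.23% under rhein.

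Cdk1, the kinase that starts mitosis, and Tpx2, a spindle assembly factor, shared a pattern, with 1 CDS site each in Pre and rhein and none in MCE or Diff. The scores were 7.07 in Pre and 8.26 under rhein for Cdk1, and 12.1 and 10.2 for Tpx2. Foxm1, a transcription factor of G2 genes, had 1 3′ UTR peak in MCE (score 6.64). Aurkb and Birc5, which encode the kinase and the survivin subunit of the chromosomal passenger complex, had 2 peaks each in MCE, with scores of 4.99 and 5.23 for Aurkb and 5.68 and 6.32 for Birc5. The peaks of Foxm1, Aurkb and Birc5 all ranked in the lower part of the list, at 3382 or below of 5128.

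No exonic peak was listed for 34 members. These were Ccnd3, Ccne1, Ccne2, Cdk2 and Cdk6 of the G1 genes, and Rb1, Rbl1, E2f2, E2f3, E2f4, E2f7 and E2f8 of the pocket proteins and E2F factors. Of the replication genes they were Mcm6, Mcm7, Orc1, Cdc6, Cdt1, Pcna and Rrm2. Of the genes of G2 and mitosis they were Ccna2, Ccnb1, Ccnb2, Cdc25a, Cdc25b, Cdc25c, Plk1, Aurka, Bub1, Bub1b, Cdc20, Ube2c, Kif11, Kif20a and Kif23. The mitotic cyclins, the E-type cyclins and the origin licensing genes Orc1, Cdc6 and Cdt1 were thus without a listed peak.

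The member peaks merged into 52 sites, of which 35 were found in 1 of the 4 distinct lists, 10 in 2, 6 in 3 and 1 in all. MCE alone held 24 of them, rhein alone 7 and Pre alone 4. MCE was also the longest list, and sites over all genes were not counted, so these numbers cannot be set against all genes. Of the 38 member peaks in MCE, 13 (34.2%, 21.2 to 50.1) overlapped a rhein peak, beside 32.04% of all peaks of that list, and of the 24 under rhein, 13 (54.2%, 35.1 to 72.1) overlapped an MCE peak, beside 53.3%. Only 3 of the 38 (7.89%, 2.72 to 20.8) overlapped a Pre peak, beside 24.8% of all MCE peaks, which lay above the interval. Top2a and Mki67, which had no peak in Pre, held 19 of the 38, and without them, a choice made after seeing the data, it was 3 of 19 (15.8%, 5.52 to 37.6), an interval that held 24.8%. The Diff peaks of the members were mostly Top2a peaks, and 7 of 9 (77.8%, 45.3 to 93.7) overlapped an MCE peak, beside 45.8% of all Diff peaks, which lay inside the interval. A rhein peak overlapped 8 of the 9 (88.9%, 56.5 to 98.01), beside 40% of all Diff peaks, which lay below the interval. In rhein Diff a peak overlapped all 9, beside 40.1% of all Diff peaks. Without Top2a and Mki67 only 2 Diff peaks were left, and 1 of them, in Cdkn1b, overlapped a rhein MCE peak. The other, in E2f1, overlapped a peak of rhein Diff but none of rhein MCE.

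**Figure D5:**
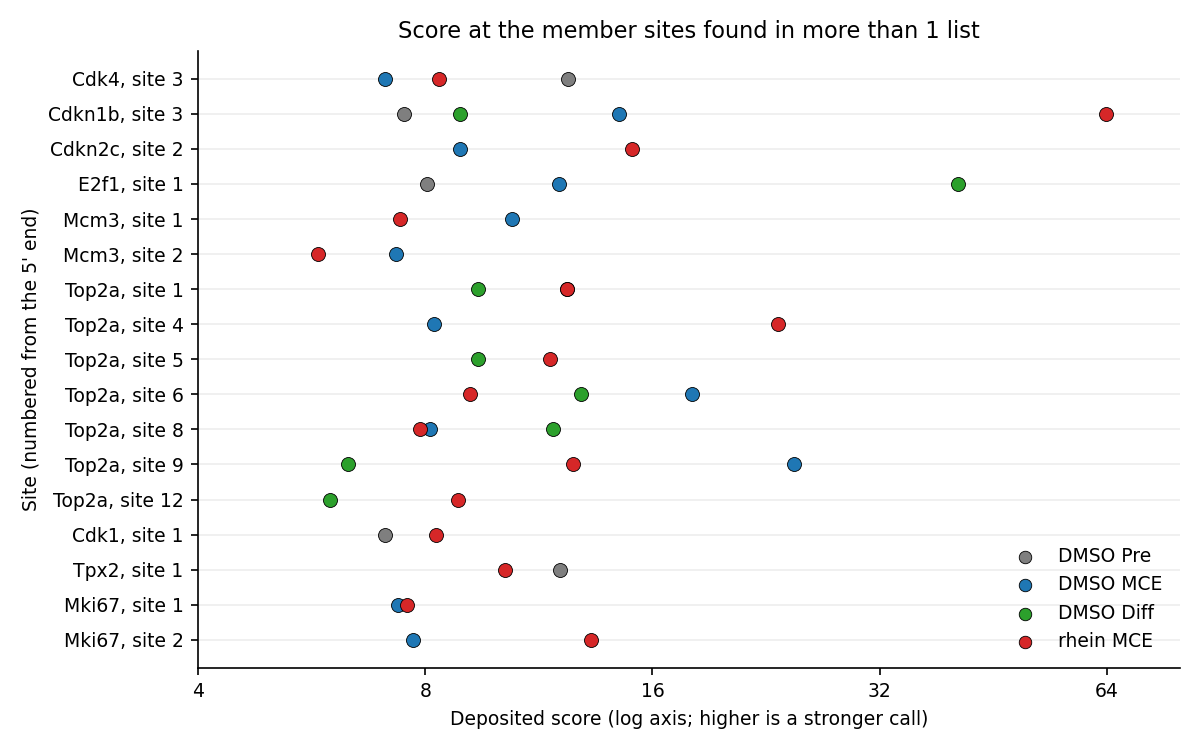
Each row is a member site found in more than 1 of the 4 distinct lists, numbered from the 5′ end of its gene, and each point is the highest deposited score of the site in a list on a log axis. Cdkn1b site 3 reaches 63.9 in rhein MCE and E2f1 site 1 reaches 40.7 in DMSO Diff, while the points of DMSO MCE and rhein MCE at Top2a site 1 coincide at 12.3.

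The share of peaks in the CDS, taken by midpoint, was higher for the members than for all peaks of each list. In Pre this order turned by the part that the lists give, at 44.4% in neither UTR against 48.7%. Most of the coding member peaks outside Pre belonged to Top2a and Mki67. Their transcripts are mostly CDS, with 4587 of 5221 and 9534 of 10061 bases. By midpoint on a coding transcript, 22 of 34 member peaks in MCE lay in the CDS (64.7%, 47.9 to 78.5), beside 53.6% of all peaks, and 15 of 23 under rhein (65.2%, 44.9 to 81.2), beside 52%. The counts were 6 of 9 in Pre and 8 of 9 in Diff. The intervals held the share of all peaks in Pre, MCE and rhein, whereas in Diff 54.5% of all peaks lay below the interval of 56.5 to 98.01, with 7 of its 9 peaks in Top2a. Without Top2a and Mki67, a choice made after seeing the data, the CDS share was 35.3% (6 of 17) in MCE and 36.4% (4 of 11) under rhein. The 3′ UTR held 10 of 34 member peaks in MCE (29.4%, 16.8 to 46.2), beside 39.1% of all peaks, and 6 of 23 under rhein (26.1%, 12.6 to 46.5), beside 40.5%. Peaks with both ends only in non-coding transcripts were left out of these shares.

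Within 200 bases of the stop codon lay 5 of 34 member peaks in MCE (14.7%, 6.45 to 30.1), beside 24.4% of all peaks. In Pre and Diff 2 of 9 lay there, and under rhein 2 of 23 (8.70%, 2.42 to 26.8), beside 22.6%. The MCE peaks concerned were in E2f1, Rbl2, Mcm3 and Mki67. All of these shares included that of all peaks in their intervals.

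The motif GGAC, searched as these 4 letters on the strand of the gene, was present in 13 of 38 member peaks in MCE (34.2%, 21.2 to 50.1), beside 52.9% of all placed peaks. It was present in 4 of 9 in Pre, beside 53.2%, in 4 of 9 in Diff, beside 48.2%, and in 10 of 24 under rhein (41.7%, 24.5 to 61.2), beside 52.3%. The share over all peaks lay above the interval of the members in MCE, but inside it without Top2a and Mki67 (42.1%, 23.1 to 63.7). Over all peaks of the same exonic lengths, GGAC was held by 48.3% in Pre, 48.3% in MCE, 53.8% in Diff and 56.8% under rhein, and the MCE and rhein values lay inside the intervals of the members. The rarest of these lengths was held by only 1 peak in MCE and 5 under rhein, so the matching is thin there. Per kb of peak, the members had 3.39 GGAC in MCE against 7.11 over all peaks, and 3.44 under rhein against 6.57. The whole transcripts of the members carried 3.93 GGAC per kb and those of all protein-coding genes 4.02, so the density under member peaks in MCE and rhein was no higher than over their whole transcripts. Without Top2a and Mki67 it was 5.09 per kb in MCE and 3.38 under rhein. A match of 4 letters is not a methylated site.

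Further cell cycle genes, 134 in 6 lists, gave a peak in 9 genes in Pre (6.72%, 3.57 to 12.3), 33 in MCE (24.6%, 18.1 to 32.6), 11 in Diff (8.21%, 4.65 to 14.1) and 12 under rhein (8.96%, 5.197 to 15). All protein-coding genes gave 6.82% in Pre, 12.3% in MCE, 6.6% in Diff and 7.27% under rhein. The 134 genes stood above all genes in MCE. In Pre, Diff and rhein the share of all genes lay inside the interval. These counts are at full list length, where MCE is the longest list, and were not repeated at equal length. For the members, equal length lowered the MCE count from 15 to 9. The 35 genes of the spindle, kinetochore and cytokinesis gave 0 in Pre, 10 in MCE, 1 in Diff and 2 under rhein, the 10 including Cenpe, Espl1, Prc1, Kif4 and Kif20b. The 39 genes of the replication fork and licensing gave 1, 7, 0 and 3, with Pola1 (3 peaks) and Fen1 (2 peaks) in MCE. The 25 genes of condensin, cohesin and the anaphase-promoting complex gave 5, 10, 6 and 4, and Smc3, a cohesin subunit, scored 24.0 in Pre, 20.4 in MCE and 14.8 in Diff and had no peak under rhein. The 15 CDK inhibitors and G1 regulators gave 3, 5, 4 and 3, the 10 checkpoint genes 0, 1, 0 and 0, and the 10 genes of the E2F, DREAM and MYB complexes none in any list. Cdkn2b, which encodes an inhibitor of CDK4 and CDK6, had 2 peaks in each DMSO list, with highest scores of 26.6 in Pre, 11.2 in MCE and 17.4 in Diff, and 0 under rhein.

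As a check of the labelled cell types, peaks can show only that a transcript was present. Of 6 preadipocyte markers, 2 had a peak in Pre, 3 in MCE, 2 in Diff and 1 under rhein. In Diff, the list labelled as mature adipocytes, these were Pdgfra (3 peaks, highest score 11.6) and Ly6a (score 7.86), and in rhein Diff it was Pdgfra (score 10.3). None of the 8 adipocyte markers had one in any list, Diff and rhein Diff included, so the label of mature adipocytes could not be checked from these lists.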

How the data were processed

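MeRIP-seq libraries (5 IP, 5 input) of 5 conditions were used through 5 deposited peak lists. Per the study's methods and the submitters' processing notes, the authors trimmed reads with Trim Galore 0.6.5, aligned them to mm10 with HISAT2 2.1.0, dropped duplicates with Picard 2.23.5 and poorly mapped reads through SAMtools 1.9, and ran exomePeak2 with its defaults for the calls and ChIPseeker 1.26 for their annotation. Which libraries entered each list, and whether strand was used, is not given in the sources used here. The deposited value of each peak, headed as a log2 fold change, was taken as a score, since no value lay below 4.

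Peaks were placed anew on GENCODE M21 (GRCm38) transcripts of the same strand with both ends in exons, coding transcripts first, then the longest, which placed 96.5% to 97.6% of each list. The symbol in the lists matched the gene for 7 of 9 member peaks in DMSO Pre, 33 of 38 in DMSO MCE, 7 of 9 in DMSO Diff and 23 of 24 in rhein MCE. Bases came from the RefSeq copy of GRCm38, and the 24 member transcripts used were identical to the GENCODE sequences. Peaks over an exon of the opposite strand had an overlapping opposite-strand peak in 41.2% to 62.3% of cases, so reads of opposite strands may not always have been separated.

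The members and all gene lists were chosen with earlier results of these data known. Every member with a peak is named, and those without are named together. No test was possible with 1 IP per condition, so shares carry 95% Wilson intervals. The alternatives were another gene assignment, score limits, equal list length, other backgrounds, windows, transcripts and overlap. Placement and overlap were tested on simulated data with known positions. Python 3.11.15, pysam 0.24.0, SAMtools 1.23.1 and Matplotlib 3.10.9 were used.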

Additional observations from a re-analysis of the deposited data

Results flagged for a closer look

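The difference between rhein and DMSO had opposite signs at the MCE and Diff stages for 5 counts, none of which was tested. Members with a peak numbered 15 in DMSO MCE and 11 in rhein MCE (-4), and 3 in DMSO Diff and 12 in rhein Diff (9 more), so that the differences lay 13 apart. Member peaks numbered 38 and 24 at MCE (-14) and 9 and 25 at Diff (16 more), 30 apart. By gene, the differences at MCE and Diff were -1 and 2 for the peaks of Top2a (3 apart), -6 and 3 for those of Mki67 (9 apart), and -2 and 1 for those of Cdk4 (3 apart). The rhein MCE and rhein Diff lists shared 3067 identical spans, so the opposite signs compare nearly 1 rhein list with a longer list at MCE and a shorter one at Diff. With lists of equal length the signs were no longer opposite for members with a peak (9 in DMSO MCE and 11 in rhein MCE, 3 in DMSO Diff and 11 in rhein Diff) or for Top2a (8 and 9, 7 and 9). For all member peaks the MCE difference shrank to -1, and for Mki67 and Cdk4 it was -2 each. Past an adjusted p-value of 0.01, members with a peak again numbered 9 and 11 at MCE, while the other 4 counts kept opposite signs, and past 0.001 none of the 5 had them.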

How the results depend on the processing

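Of 28 alternative values for the share of members with a peak, 19 stayed within the main interval. A score past an adjusted p-value of 0.01 gave 17% in DMSO MCE, and past 0.001 the shares were 3.77% in DMSO Pre, 7.55% in DMSO MCE and 9.43% in rhein MCE. Lists cut to the length of the shortest gave 17% in DMSO MCE. Among genes with a peak in at least 1 list the shares were 36.8%, 78.9%, 15.8% and 57.9% in DMSO Pre, DMSO MCE, DMSO Diff and rhein MCE. The member share stayed above that of all genes in DMSO MCE and rhein MCE under every alternative run, but its interval held the share of all genes by listed symbol in DMSO MCE (12 to 33.5, against 12.5%) and, among genes with a peak in at least 1 list, in both. In DMSO Pre it fell below that of all genes only among genes with a peak in at least 1 list, and in DMSO Diff it rose above it past 0.01 and 0.001 and against all annotated genes.

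On the transcript named in the lists, which held both ends of only 2 or 3 member peaks in each of these lists, the CDS share was 100% in DMSO Pre, 33.3% in DMSO MCE and 0% in rhein MCE. By the part that the lists give, 44.4% of member peaks in DMSO Pre lay in neither UTR, against 48.7% of all peaks. In DMSO MCE it was 63.2% (47.3 to 76.6) against 44.8%, which lay below the interval. In DMSO Diff it was 77.8% (45.3 to 93.7) against 48%, now inside the interval, and in rhein MCE 58.3% against 44.7%. Without Top2a and Mki67, an alternative chosen after seeing the data, the CDS shares of DMSO MCE, DMSO Diff and rhein MCE were 35.3%, 50% and 36.4%, and the share with GGAC in DMSO Diff became 100% of 2 peaks. Without these genes, the only 2 Diff peaks left overlapped DMSO Pre in 100%, DMSO MCE in 100% and rhein MCE in 50%, and 8.33% of the rhein MCE peaks overlapped DMSO Diff. At equal list length, 54.2% of the DMSO MCE member peaks overlapped rhein MCE. All shares near the stop codon stayed within their intervals. Beyond the constructions named, the causes were not tested. No paired analysis was possible because each condition had 1 IP and 1 input. Depth, unknown here, limits every statement on a gene without a peak.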
